A study of Mus musculus with 6 samples.

Results

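Genes of translation factors and of the enzymes that charge transfer RNA were compared between sorted mouse cells. The set was defined by gene symbol: single-symbol array rows for eukaryotic initiation factors (Eif), elongation factors (Eef) and aminoacyl-tRNA synthetases (symbols ending in "ars", with Eprs, Farsa and Farsb), which gave 95 of the 19938 genes measured. The only measured value in that rule was the mean over all 6 samples, which picked 1 row for each of the 9 members that had more than 1. The set was proposed with the results of this comparison in view, so its counts describe the data and nothing is inferred from them.

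The cells came from mouse embryonic stem (ES) cells of the W4/129S6 background with a knock-in reporter, green fluorescent protein (GFP), at Nkx2-1, which encodes a homeodomain factor of lung, thyroid and ventral forebrain. After 14 days of differentiation they were sorted into 3 samples of GFP-positive cells (Nkx2-1 high, labelled Nkx2-1GFP+) and 3 of GFP-negative cells (Nkx2-1 low, labelled Nkx2-1GFP-), which the labels call biological replicates. Both groups thus carried the reporter allele. The labels do not say whether the cells are 1 clone or whether the 3 samples came from separate cultures, so the p-values measure the spread between these samples. Expression is given as deposited log2 values, in which a difference of 1 is a doubling.

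Nkx2-1 itself read 7.62, 7.77 and 7.78 in Nkx2-1 high, against 5.42, 5.23 and 5.34 in Nkx2-1 low, as the sort on its reporter sets. Although the labels give the cell type as ES cells, the 4 pluripotency markers Pou5f1, Nanog, Zfp42 and Dppa5a were not above the background level of 4.27 in either group. That level is the 95th percentile of olfactory and vomeronasal receptor rows. Among markers of other cells, 8 of 11 mesenchyme genes and 7 of 13 neuron genes were lower in Nkx2-1 high by limma. The share over all genes was 3.09%. The summed linear signal of the mesenchyme list ran from 2655 to 3548 in Nkx2-1 high and from 5851 to 7111 in Nkx2-1 low, while the neuron list ran from 390.5 to 504 in Nkx2-1 high and from 699 to 718 in Nkx2-1 low. None of the mesenchyme markers and 1 of the neuron markers lay at background in both groups. Of the other lists, Hhex and Pax8 rose besides Nkx2-1 among 8 thyroid and lung progenitor markers. In all 6 of these lay above 0 and 2 below, Foxa2 (-0.04) and Sftpc (-0.17). Sftpc and Tg were at background in both groups. Of 5 measured endothelial and blood genes 1 rose, Flt4 (2.14-fold higher), and in all 3 lay above 0 and 2 below. Of 8 epithelial genes 1 fell, Epcam (1.76-fold lower), and in all 5 lay below 0 and 3 above, Krt18 (0.35, not called) among them. The fractions therefore differed in marker content, and its part in the differences below was not tested.

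Protein synthesis begins when eIF2 brings the initiator methionyl-tRNA to the small ribosomal subunit, eIF3 and the eIF4 factors bring that subunit to the cap of the messenger RNA, and the large subunit joins at the start codon. eEF1A then delivers each charged tRNA and eEF2 moves the ribosome along. Aminoacyl-tRNA synthetases join each amino acid to its tRNA, with separate nuclear genes for most cytosolic and mitochondrial enzymes. Short amino acid supply activates the eIF2 kinase GCN2, and phosphorylated eIF2 blocks its exchange factor eIF2B, which lowers translation in general while raising that of ATF4, a transcription factor whose known targets include Asns and several cytosolic synthetase genes.

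Translation factor and synthetase genes differed little between the fractions, and most of the small differences pointed to lower levels in Nkx2-1 high. By limma with adjustment over all 19938 genes, 3 members fell and 0 rose. These were the glycyl-tRNA synthetase gene Gars, the eIF2B subunit gene Eif2b3 and Eef1e1, which encodes a scaffold protein of the multi-synthetase complex. The 3 falls are 3.16% of the 95 members, next to 3.09% of all genes lower by the same rule, and 2.90% of all genes were higher. The share of members that passed the test was thus close to that of all genes. At an unadjusted p under 0.05, 24 members were lower and 0 higher, against 10.4% of all genes lower and 8.57% higher.

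The direction was shared more widely than the calls. The log2 difference, Nkx2-1 high minus Nkx2-1 low, was below 0 for 76 of the 95 members (80.0%), next to 52.4% of all genes. Its median was -0.09 over the members and -0.01 over all genes. In 34 members every Nkx2-1 high sample lay below every Nkx2-1 low sample, and in 1 member, the mitochondrial synthetase gene Fars2, every Nkx2-1 high sample lay above. Among all genes 13.5% had such separate groups with Nkx2-1 high below, and 11.2% with Nkx2-1 high above. Nearly all members were above background and 32.2% of all genes were not. Among the 13513 genes above background, 17.3% had separate groups with Nkx2-1 high below, 53.0% had differences below 0, and 4.26% were called lower. The members' differences ran from -0.42 for Gars to 0.16 for Eef1a2, and 88 of the 95 had a 95% interval that lay wholly between -0.5 and 0.5. The samples are bulk, so a lower level in each cell and fewer cells that express a gene cannot be told apart. Of the 95 members, 93 were above background, and Eif4a3l1 and Eef1akmt3 were not.

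**Figure D1:**
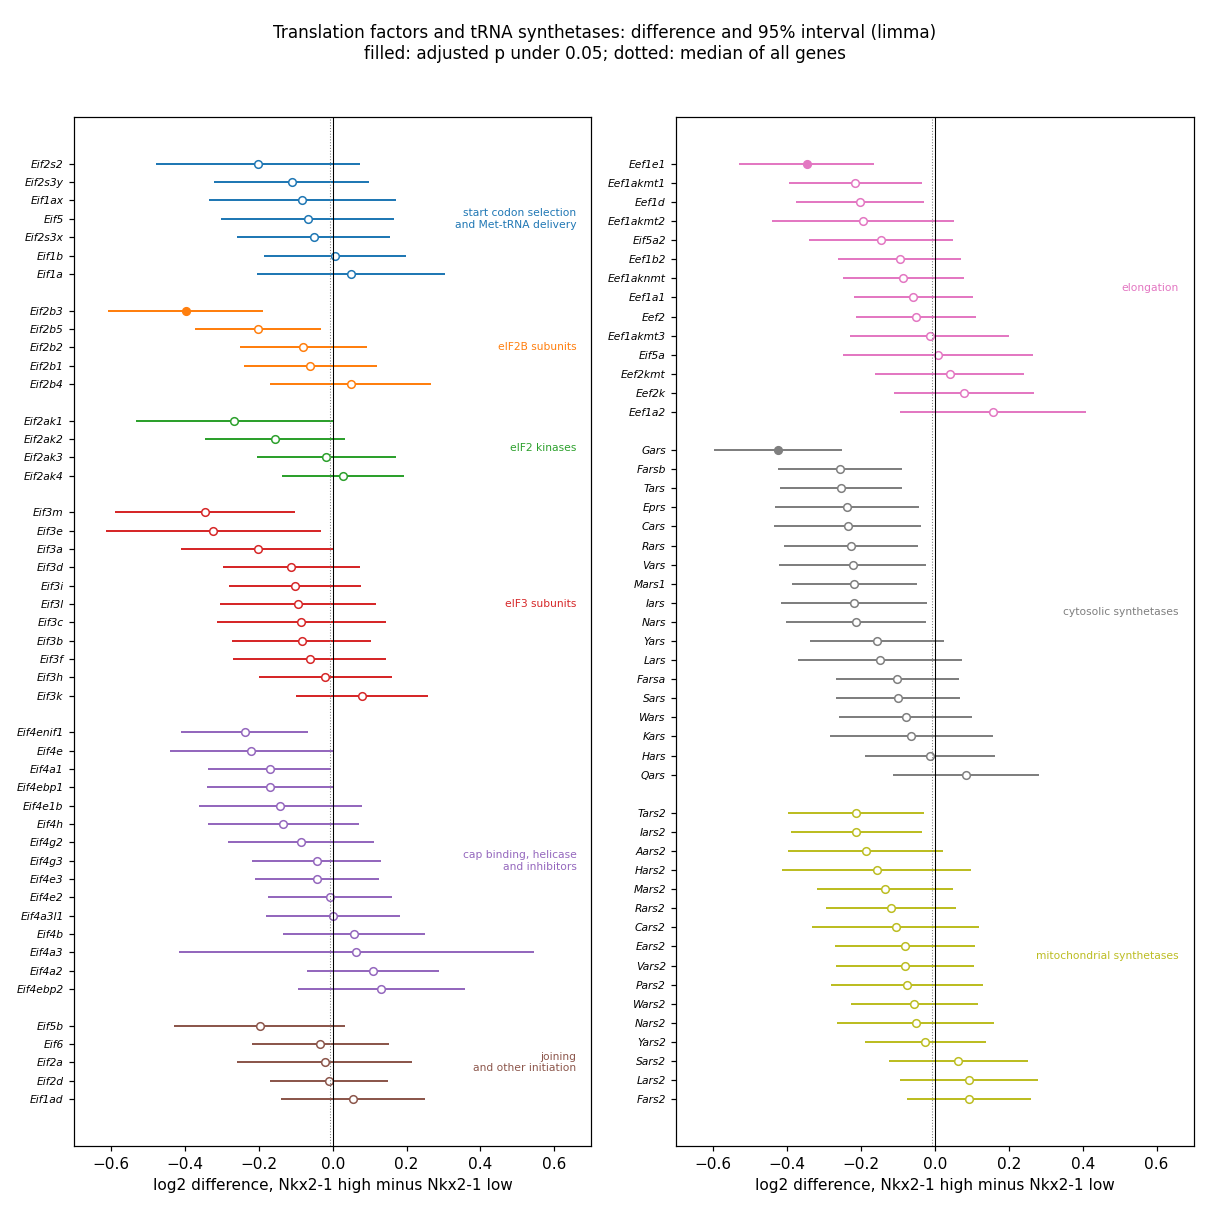
Log2 difference, Nkx2-1 high minus Nkx2-1 low (horizontal axis), for each of the 95 members by role, with the 95% interval from limma as a line. Filled points passed the adjusted p threshold of 0.05 (Gars, Eif2b3 and Eef1e1), the dotted line is the median of all genes, and 76 points lie left of 0.

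Initiation begins with the factors that deliver methionyl-tRNA and select the start codon, and of these 7 genes 0 passed the test in either direction. Eif2s2, the beta subunit of eIF2, read 7.70, 7.79 and 7.57 in Nkx2-1 high and 8.15, 7.67 and 7.85 in Nkx2-1 low. The groups overlapped, and the difference was -0.20 ± 0.12 (SE, limma adjusted p = 0.429). The gamma subunit has an X-linked and a Y-linked copy, Eif2s3x and Eif2s3y, with differences of -0.05 ± 0.09 and -0.11 ± 0.09 (SE). These copies are close paralogs, so their probes may share signal. The scanning factor genes Eif1ax, Eif1b and Eif1a and the GTPase activator gene Eif5 lay between -0.08 and 0.05.

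The exchange factor eIF2B recharges eIF2 with GTP, and of its 5 subunit genes 1 fell, next to 3.09% of all genes. Eif2b3, the gamma subunit, read 6.38, 6.38 and 6.38 in Nkx2-1 high, against 6.89, 6.59 and 6.86 in Nkx2-1 low. All Nkx2-1 high samples lay below all Nkx2-1 low samples, and the Nkx2-1 low samples were the more spread. The difference was -0.40 ± 0.09 (SE), 1.32-fold lower, with limma adjusted p = 0.0349. The call was lost in 5 of the 6 fits without 1 sample, with adjusted p from 0.0183 (without Nkx2-1 low replicate 2, the only such fit that kept it) to 0.116 (without Nkx2-1 high replicate 2). Eif2b5, the catalytic epsilon subunit, differed by -0.20 ± 0.07 (SE, limma adjusted p = 0.174) with groups that did not overlap. Eif2b2 differed by -0.08 ± 0.08, Eif2b1 by -0.06 ± 0.08 and Eif2b4 by 0.05 ± 0.10 (SE).

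The 4 eIF2 kinases shut eIF2B down under stress, and 0 of their genes passed the test. Eif2ak1, the heme-regulated kinase, read 6.35, 6.17 and 5.91 in Nkx2-1 high and 6.30, 6.38 and 6.55 in Nkx2-1 low, with overlapping groups (limma adjusted p = 0.262). Eif2ak2, the kinase PKR that senses double-stranded RNA, differed by -0.16 ± 0.08 (SE). Eif2ak3, the kinase PERK of the endoplasmic reticulum, differed by -0.02 ± 0.08 and Eif2ak4, the amino acid sensor GCN2, by 0.03 ± 0.07 (SE). The 95% interval of Eif2ak4 ran from -0.13 to 0.19.

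The eIF3 complex bridges the small subunit and the cap-binding factors, and of 11 measured subunit genes 0 passed the test while 10 had differences below 0. Eif3m read 7.27, 6.94 and 6.87 in Nkx2-1 high, against 7.31, 7.39 and 7.41 in Nkx2-1 low (-0.35 ± 0.11, SE, limma adjusted p = 0.105). The groups did not overlap, but Nkx2-1 high replicate 1 lay next to the Nkx2-1 low samples, and without it the difference was -0.47 (adjusted p = 0.0239). A second row of Eif3m, not used as the main value, gave -0.17 ± 0.15 (SE). Eif3e read 7.63, 7.29 and 7.34 in Nkx2-1 high and 7.92, 7.49 and 7.81 in Nkx2-1 low, with overlap (-0.32 ± 0.13, SE). The largest subunit, Eif3a, differed by -0.20 ± 0.09, the others lay between -0.11 and -0.02, and Eif3k differed by 0.08 ± 0.08 (SE).

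Among 15 genes of cap binding, RNA unwinding and their inhibitors, 0 passed the test and 10 differences were below 0. Eif4enif1, whose product carries eIF4E into the nucleus, read 6.90, 6.93 and 6.81 in Nkx2-1 high, against 7.10, 7.09 and 7.16 in Nkx2-1 low (-0.24 ± 0.08, SE, limma adjusted p = 0.110). Its groups did not overlap, while a second and dimmer row of the gene gave 0.01 ± 0.07 (SE).

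Eif4e, the cap-binding protein gene, depended on the row. The brightest of its 3 rows read 8.12, 8.12 and 8.05 in Nkx2-1 high and 8.48, 8.13 and 8.34 in Nkx2-1 low (-0.22 ± 0.10, SE, limma adjusted p = 0.259). Another row read 4.89, 4.96 and 5.03 in Nkx2-1 high, against 5.34, 5.40 and 5.41 in Nkx2-1 low. In a fit of all rows this second difference was -0.42 ± 0.08 (SE, limma adjusted p = 0.0114), and the remaining row gave 0.03 ± 0.10 (SE). The 3 rows thus disagreed on whether Eif4e passed the test. Probe locations were not used here, so which row measures the gene rather than a copy was not settled.

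The helicase paralogs Eif4a1 and Eif4a2 had differences of opposite sign, and neither passed. Eif4a1 read 10.67, 10.64 and 10.58 in Nkx2-1 high and 10.83, 10.79 and 10.78 in Nkx2-1 low (-0.17 ± 0.07, SE, limma adjusted p = 0.238). Its groups did not overlap, and all 3 of its rows were below 0 (-0.15 and -0.10 for the other two). Eif4a2 read 8.86, 8.96 and 8.78 in Nkx2-1 high and 8.78, 8.77 and 8.73 in Nkx2-1 low (0.11 ± 0.08, SE), with a narrow overlap. The difference between the paralogs was not tested. Eif4a3, the helicase of the exon junction complex, had the widest interval of the set, from -0.41 to 0.54, with 6.14, 5.91 and 5.58 in Nkx2-1 high and 6.29, 5.38 and 5.77 in Nkx2-1 low. Of the inhibitors that sequester eIF4E, Eif4ebp1 differed by -0.17 ± 0.07 and Eif4ebp2 by 0.13 ± 0.10 (SE). The scaffold genes Eif4g2 and Eif4g3 differed by -0.09 ± 0.09 and -0.04 ± 0.08 (SE).

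Of 5 genes of subunit joining and other steps, 0 passed. Eif5b, the GTPase that joins the subunits, differed by -0.20 ± 0.10 (SE, limma adjusted p = 0.342), and Eif6, which keeps the large subunit from joining early, by -0.03 ± 0.08 (SE). Eif2a, Eif2d and Eif1ad lay between -0.02 and 0.05.

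Among 14 elongation genes, 1 fell (7.14%, next to 3.09% of all genes). Eef1e1 carries an elongation factor symbol, but its product, also called AIMP3 or p18, is known as a scaffold of the multi-synthetase complex. It read 7.19, 7.16 and 7.23 in Nkx2-1 high, against 7.61, 7.43 and 7.59 in Nkx2-1 low. The groups did not overlap, and the difference was -0.35 ± 0.08 (SE), 1.27-fold lower, with limma adjusted p = 0.0335. The call was lost in 5 of the 6 fits without 1 sample, with adjusted p from 0.0433 (without Nkx2-1 low replicate 2, the only such fit that kept it) to 0.130 (without Nkx2-1 high replicate 2).

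Among the elongation factors proper, Eef1a1 and Eef2 lay close to 0 and Eef1d further below. Eef1a1, which brings charged tRNA to the ribosome, read 12.48, 12.45 and 12.45 in Nkx2-1 high and 12.52, 12.51 and 12.52 in Nkx2-1 low (-0.06 ± 0.07, SE). Its groups did not overlap, although the difference was small. The 95% interval of the Eef1a1 difference ran from -0.22 to 0.10 and that of Eef2, the translocase gene, from -0.21 to 0.11. Eef1a2, the paralog of muscle and neurons, had the highest log2 difference of the whole set (0.16 ± 0.11, SE, limma adjusted p = 0.514), with overlapping groups. Eef1d and Eef1b2, exchange factor subunits for eEF1A, differed by -0.20 ± 0.08 and -0.10 ± 0.07 (SE), both without overlap. The limma adjusted p of Eef1d was 0.177. The methyltransferase gene Eef1akmt1 differed by -0.22 ± 0.08 (SE), with limma adjusted p = 0.168. Eif5a, which helps the ribosome past stretches of proline, differed by 0.01 ± 0.11 (SE), while a second and dimmer row of the gene gave -0.08 ± 0.07 (SE). Eef2k, the kinase that inhibits eEF2, differed by 0.08 ± 0.08 (SE).

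Cytosolic synthetases gave the most even pattern of the set. Of 18 genes 1 fell (5.56%) and 0 rose, while 17 had differences below 0 (94.4%). In 13 (72.2%) every Nkx2-1 high sample lay below every Nkx2-1 low sample. Over all genes these shares were 3.09% called lower, 52.4% below 0 and 13.5% with separate groups. Among genes above background they were 4.26%, 53.0% and 17.3%. The median difference of the cytosolic synthetases was -0.22 next to -0.01 for all genes.

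Gars, which charges glycine tRNA in both cytosol and mitochondria, read 7.30, 7.19 and 7.27 in Nkx2-1 high, against 7.68, 7.62 and 7.73 in Nkx2-1 low. The groups did not overlap, and the difference of -0.42 ± 0.08 (SE), 1.34-fold lower, had limma adjusted p = 0.0107. Of the 6 fits that left out 1 sample, only that without Nkx2-1 high replicate 2 lost the call (adjusted p = 0.0598). For this gene, for Eif2b3 and for Eef1e1, an exact two-sided permutation test of the 3 against 3 samples gave p = 0.1, the smallest such a design allows.

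The next synthetases were below 0 without passing. Farsb, the beta subunit of the phenylalanine enzyme, read 7.62, 7.52 and 7.55 in Nkx2-1 high and 7.81, 7.86 and 7.80 in Nkx2-1 low (-0.26 ± 0.07, SE, limma adjusted p = 0.0806). The threonine enzyme gene Tars read 5.94, 5.99 and 5.90 in Nkx2-1 high and 6.23, 6.19 and 6.19 in Nkx2-1 low (-0.26 ± 0.07, SE, limma adjusted p = 0.0781). In both the groups were apart. Eprs, which charges glutamate and proline tRNAs, Cars for cysteine, Rars for arginine, Vars for valine, Mars1 for methionine, Iars for isoleucine and Nars for asparagine lay between -0.24 and -0.21, also without overlap. Yars (tyrosine), Lars (leucine), Farsa (the alpha subunit for phenylalanine), Sars (serine), Wars (tryptophan), Kars (lysine) and Hars (histidine) lay between -0.16 and -0.01. The glutamine enzyme gene Qars was the only one above 0, with 9.81, 9.78 and 9.59 in Nkx2-1 high and 9.71, 9.58 and 9.63 in Nkx2-1 low (0.08 ± 0.09, SE).

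**Figure D2:**
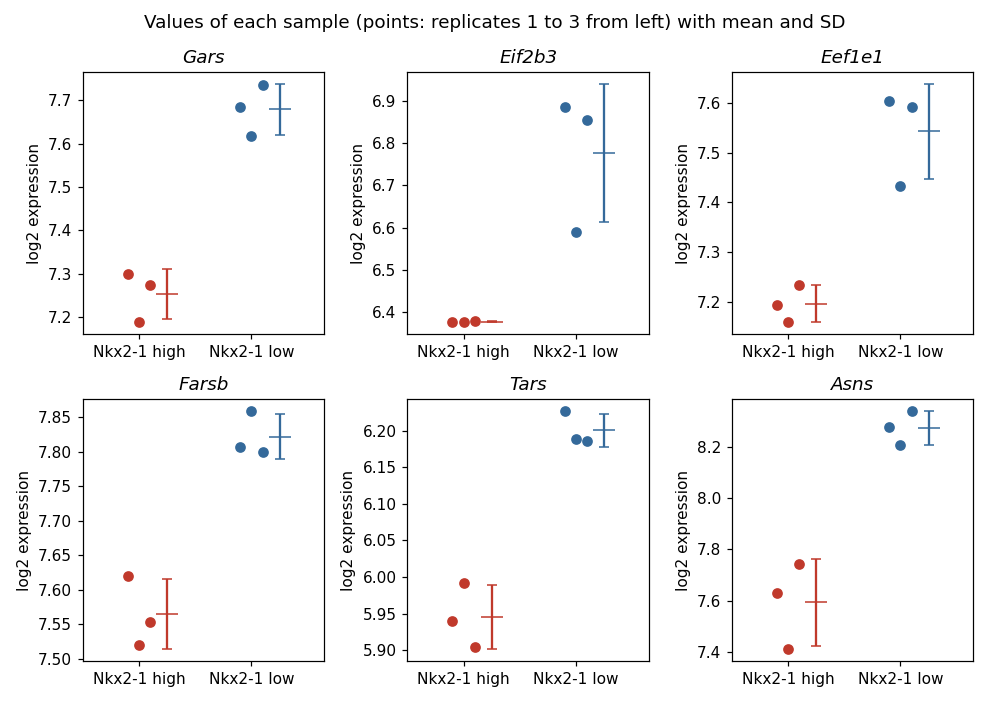
Log2 expression (vertical axes, not starting at 0) of 5 members and of the asparagine synthetase gene Asns in each sample, with the group mean and SD beside the points. In each of the 6 panels all Nkx2-1 high points lie below all Nkx2-1 low points, and only Gars, Eif2b3, Eef1e1 and Asns passed the test.

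Of 16 mitochondrial synthetase genes 0 passed the test, and 13 had differences below 0, with a median of -0.08. Tars2 read 6.80, 6.78 and 6.63 in Nkx2-1 high, against 6.95, 6.89 and 7.01 in Nkx2-1 low (-0.21 ± 0.08, SE, limma adjusted p = 0.181). Iars2 differed by -0.21 ± 0.08 (SE, limma adjusted p = 0.165), and in both genes the groups did not overlap. Fars2 read 6.76, 6.77 and 6.74 in Nkx2-1 high and 6.65, 6.61 and 6.73 in Nkx2-1 low (0.09 ± 0.07, SE), every Nkx2-1 high sample above every Nkx2-1 low sample. Lars2 and Sars2 were the other two above 0, at 0.09 ± 0.08 and 0.06 ± 0.08 (SE).

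Cytosolic and mitochondrial genes were paired by symbol for 13 amino acids, which made 14 pairs because phenylalanine has 2 cytosolic subunits. Eprs (-0.24), which serves both glutamate and proline, was not paired with the mitochondrial genes Ears2 (-0.08) and Pars2 (-0.08). In 13 of the 14 pairs the cytosolic difference was the more negative. The exception was histidine, with -0.01 for Hars and -0.16 for Hars2. The widest gap was that of Farsb (-0.26) and Fars2 (0.09), and the narrowest that of Iars (-0.22) and Iars2 (-0.21). The pairs share their samples, and the gap was not tested.

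**Figure D3:**
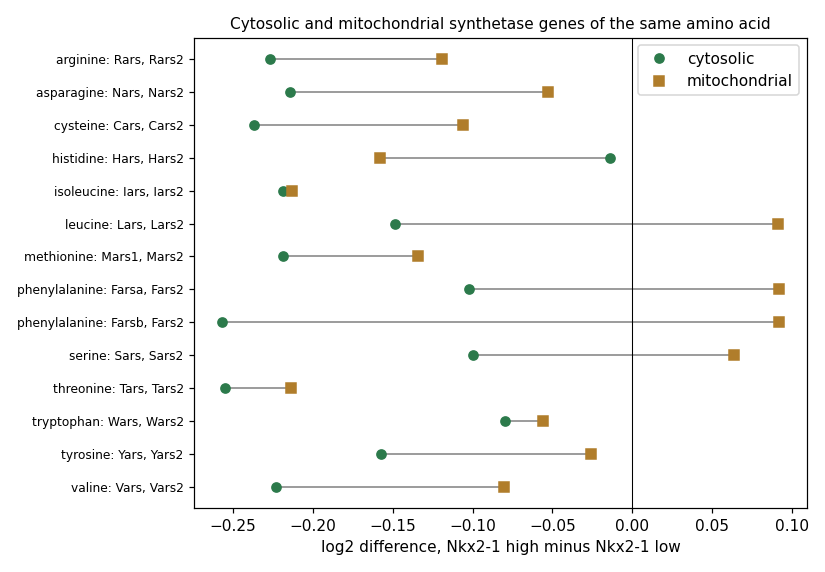
Log2 difference, Nkx2-1 high minus Nkx2-1 low (horizontal axis), of cytosolic (circles) and mitochondrial (squares) synthetase genes for the same amino acid. The circle lies left of the square in 13 of 14 pairs, all but histidine. Eprs, Ears2 and Pars2 are not shown.

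Promoter sequence was the other property compared, since several cytosolic synthetase genes are known ATF4 targets. Promoters from RefSeq on GRCm38.p6, from 250 bases before to 50 after the annotated start, were matched for 73 of the 95 members, with 89 promoters. The motif TGATGNAA, the core of the element that ATF4 binds with C/EBP factors, was searched on both strands. It lay in 6 of the 89 promoters (6.74%), next to 3.97% of all 32851. Of the 11 cytosolic synthetase promoters 4 held it, those of Gars, Tars, Iars and Yars, and of 15 mitochondrial synthetase promoters 0 did. The other two matches were in Eef2k and Eif2s3x. The 4 synthetase windows are shown with that of Asns, the asparagine synthetase gene, because it is a known ATF4 target that fell here. Each runs from 60 bases before to 20 after the start, 5′ to 3′ on the strand of the gene, and capitals mark the motif or its reverse complement. Gars was the only member of these that passed the test, and the others were chosen for display after their values were seen.
Gars (chr6:55037941-55038020, plus strand): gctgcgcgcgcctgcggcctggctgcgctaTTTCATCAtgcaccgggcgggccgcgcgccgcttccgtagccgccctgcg
Tars (chr15:11399639-11399718, minus strand): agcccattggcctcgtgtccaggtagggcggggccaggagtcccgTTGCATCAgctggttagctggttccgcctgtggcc
Iars (chr13:49682070-49682149, plus strand): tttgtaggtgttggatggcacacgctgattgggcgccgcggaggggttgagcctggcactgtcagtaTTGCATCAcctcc
Yars (chr4:129189843-129189922, plus strand): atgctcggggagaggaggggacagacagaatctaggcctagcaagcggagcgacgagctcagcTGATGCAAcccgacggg
Asns (chr6:7693190-7693269, minus strand): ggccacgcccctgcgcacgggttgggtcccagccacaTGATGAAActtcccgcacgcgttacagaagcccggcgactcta
The log2 differences of the genes with these windows were -0.42 for Gars, -0.26 for Tars, -0.22 for Iars and -0.16 for Yars. Those of the 7 cytosolic synthetase genes with a promoter and no match ran from -0.26 (Farsb) to 0.08 (Qars), so the ranges overlapped. A match is a description of the letters and not of binding.

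Other elements were searched in the same windows. The E-box CACGTG, bound by Myc and USF factors, lay in 18 of the 89 member promoters (20.2%) and in 7.15% of all promoters. It was found in the promoters of 16 genes. Eif4e, Eif4a1, Eif4h, Eif3a, Eif3f, Eef2, Eef1aknmt, Eif5a2, Farsb, Iars, Tars and Ears2 had differences below 0. Those of Eif3k (0.08), Eef2k (0.08), Eif5a (0.01) and Eif1b (0.01) were above 0, although the second row of Eif5a was below (-0.08). A link of the E-box to the differences was not tested. A terminal oligopyrimidine stretch is the element through which mTOR controls translation of ribosomal protein and elongation factor messenger RNAs. It was taken as C followed by at least 5 of C or T, starting within 10 bases of the annotated start on the gene's strand. It lay in 19 of the 89 member promoters (21.3%) and in 18.5% of all, Eef1a1 and Eif4e included, and in 0 of the 11 cytosolic synthetase promoters. Annotated starts can be off by more than 10 bases, which limits this search.

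Genes around the pathway were read from lists chosen by function. For comparison with the counts of these lists, 3.09% of all genes fell and 2.90% rose. Of 20 measured genes of the ATF4 list, Atf4 and its targets, 4 fell and 1 rose (median 0.03). Asns read 7.63, 7.41 and 7.74 in Nkx2-1 high, against 8.28, 8.21 and 8.34 in Nkx2-1 low, with no overlap (-0.68 ± 0.10, SE, 1.60-fold lower, limma adjusted p = 0.00333). The lipoprotein receptor gene Vldlr fell (-0.51 ± 0.08, SE), as did Slc7a11, which encodes the cystine transporter (-0.51 ± 0.12, SE), and Cebpg (-0.42). The Slc7a11 call held only when Nkx2-1 high replicate 1 was the sample left out, and its adjusted p reached 0.116 otherwise. The gene that rose, Ppp1r15a (0.54 ± 0.09, SE), encodes the GADD34 subunit of the phosphatase that reverses eIF2 phosphorylation. Atf4 itself read 6.80, 6.76 and 6.79 in Nkx2-1 high and 6.75, 6.73 and 6.68 in Nkx2-1 low (0.06 ± 0.07, SE), and its protein was not measured. Ddit3, the CHOP gene, differed by 0.07 ± 0.07 and Trib3 by 0.05 ± 0.09 (SE). Calls in this list thus went both ways.

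Of 10 genes of serine, proline and one-carbon synthesis 2 fell and 0 rose (median -0.22). Mthfd2, a mitochondrial folate enzyme gene, read 4.60, 4.82 and 5.01 in Nkx2-1 high, against 5.48, 5.52 and 5.71 in Nkx2-1 low (-0.76 ± 0.11, SE, limma adjusted p = 0.00422). Mthfd1, its cytosolic relative, fell by 0.50 on the log2 scale. Its call was lost when Nkx2-1 high replicate 2 was left out (adjusted p = 0.0585).

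Of 12 amino acid transporter genes 1 rose, the cationic amino acid carrier gene Slc7a2. It read 7.59, 7.54 and 7.52 in Nkx2-1 high, against 6.11, 6.03 and 6.14 in Nkx2-1 low, 2.75-fold higher (1.46 ± 0.07, SE, limma adjusted p = 1.2e-05). Of 14 genes of the mTOR pathway 1 rose, Deptor, an inhibitor that binds mTOR. It read 6.94, 6.85 and 6.49 in Nkx2-1 high, against 5.85, 5.56 and 5.51 in Nkx2-1 low, 2.17-fold higher (1.12 ± 0.13, SE, limma adjusted p = 0.00108). In both genes the groups were far apart, and the list medians were -0.04 and 0.01.

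Neighbouring steps of translation were mostly below 0, with few calls. Of 12 termination, recycling and poly(A)-binding genes 11 had differences below 0 (91.7%, median -0.12). In 5 (41.7%) every Nkx2-1 high sample lay below every Nkx2-1 low sample. Over all genes these shares were 52.4% and 13.5%, and among genes above background 53.0% and 17.3%. Of these 12 genes 1 fell (8.33%, next to 3.09% of all genes), Abce1, which splits ribosomes after termination (-0.40 ± 0.08, SE). Leaving out Nkx2-1 high replicate 2, Nkx2-1 low replicate 1 or Nkx2-1 low replicate 3 ended that call, with adjusted p as high as 0.0798. Hbs1l, a ribosome rescue factor gene, and Gspt1, the release factor eRF3 gene, differed by -0.28 ± 0.07 and -0.30 ± 0.08 (SE), with limma adjusted p = 0.0539 and 0.0635, and were chosen after their values were seen. Of 10 mitochondrial translation factors 8 had differences below 0 (median -0.09). Of the 10 genes 1 fell, Mrrf, the recycling factor gene (-0.37 ± 0.08, SE), a call that held only when Nkx2-1 low replicate 1 was the sample left out (adjusted p otherwise as high as 0.108). Of 7 scaffold and synthetase-like genes 5 had differences below 0 (median -0.12) and 0 passed. Aimp1, another scaffold of the multi-synthetase complex, differed by -0.26 ± 0.08 (SE, limma adjusted p = 0.101).

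Ribosomal protein genes lay on both sides of 0. Of 59 genes 0 passed by limma, the median was 0.02, and an unadjusted p under 0.05 was reached by 2 that were higher and 2 that were lower. The furthest from 0 was Rpl12 (-0.35 ± 0.12, SE, limma adjusted p = 0.140). Many of these genes have processed pseudogenes, whose transcripts or copies can add to a probe's signal.

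Genes of the nucleolus and of proliferation were lower in part. Of 14 Myc and nucleolar genes 3 fell (21.4%, next to 3.09% of all genes) and 0 rose (median -0.21). They were Ddx21 (-0.45 ± 0.08, SE), Nop56 (-0.41 ± 0.07, SE) and Rrs1 (-0.72 ± 0.16, SE). Nop56 was not called without Nkx2-1 high replicate 2 (adjusted p = 0.0511), and Rrs1 only held without Nkx2-1 high replicate 1 or Nkx2-1 low replicate 2 (adjusted p otherwise as high as 0.107). Myc differed by -0.22 ± 0.11 (SE, limma adjusted p = 0.340). Of 9 proliferation markers 2 fell (22.2%), Mcm2 (-0.36 ± 0.09, SE) and Pcna (-0.33 ± 0.08, SE). The others did not pass. Mki67, Top2a, Ccna2 and Cdk1 lay between -0.06 and 0.01, and Mcm5, Birc5 and Bub1 between -0.19 and -0.16. Mcm2 held only without Nkx2-1 high replicate 1 (adjusted p otherwise as high as 0.122), and Pcna was lost whichever sample was left out (adjusted p as high as 0.101). The summed signal of the proliferation list ran from 1825 to 1981 in Nkx2-1 high and from 2052 to 2156 in Nkx2-1 low. Its part in the lower synthetase values was not tested.

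**Figure D4:**
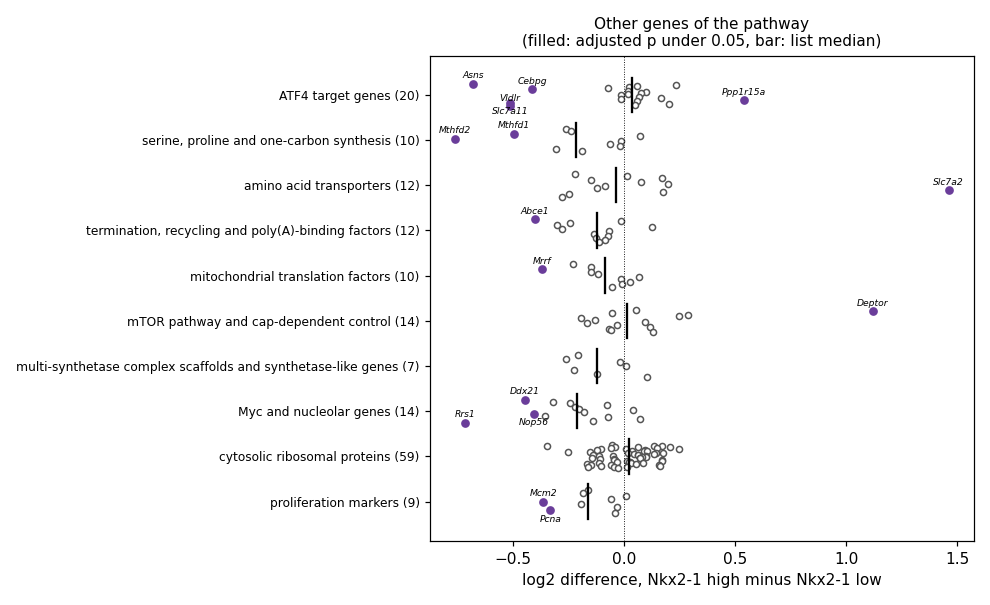
Log2 difference, Nkx2-1 high minus Nkx2-1 low (horizontal axis), of each gene in 10 lists around the pathway, with the number measured in brackets and the list median as a bar. Filled, named points passed the adjusted p threshold of 0.05. Slc7a2 and Deptor stand apart at 1.46 and 1.12, and the 59 ribosomal protein genes centre on 0.02.

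By sample, the median deviation of the 18 cytosolic synthetases from each gene's mean was -0.03, -0.08 and -0.14 in Nkx2-1 high and 0.13, 0.07 and 0.08 in Nkx2-1 low. The groups did not overlap, and the lowest and highest were Nkx2-1 high replicate 3 and Nkx2-1 low replicate 1. These samples also had the lowest and highest median of the Myc and nucleolar genes, -0.25 and 0.21, of the mesenchyme markers, -0.83 and 0.70, and of the proliferation markers, -0.15 and 0.15. The order was not shared by every list. The neuron markers were lowest in Nkx2-1 high replicate 1 (-0.43) and least low within that group in replicate 3 (-0.14), and the serine, proline and one-carbon genes were highest in Nkx2-1 low replicate 3 (0.12). Initiation factors overlapped, with 0.03, -0.04 and -0.08 in Nkx2-1 high and 0.10, -0.00 and -0.00 in Nkx2-1 low. For mitochondrial synthetases the medians were -0.03, -0.06 and -0.01 in Nkx2-1 high and 0.00, 0.02 and 0.06 in Nkx2-1 low, also without overlap. Elongation genes (-0.03, -0.04 and -0.05 in Nkx2-1 high, 0.08, 0.02 and 0.04 in Nkx2-1 low) and eIF2B genes (-0.05, -0.07 and -0.10 in Nkx2-1 high, 0.12, 0.01 and -0.00 in Nkx2-1 low) did not overlap either. Nor did eIF2 kinase genes (0.00, -0.04 and -0.06 in Nkx2-1 high, 0.05, 0.03 and 0.06 in Nkx2-1 low). The cap-binding group was apart by a narrow margin, from -0.00997 in Nkx2-1 high to -0.00952 in Nkx2-1 low. The start codon, eIF3 and joining groups overlapped. For ribosomal proteins the medians were 0.03, -0.02 and -0.01 in Nkx2-1 high and 0.05, -0.07 and -0.02 in Nkx2-1 low, with overlap.

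**Figure D5:**
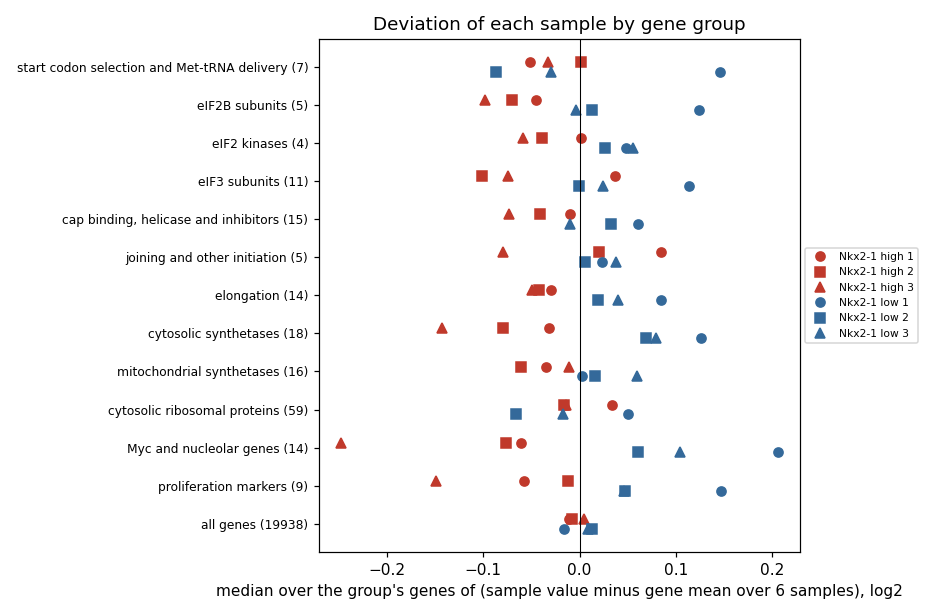
Median over the genes of each group of the sample's value minus the gene's mean over 6 samples (horizontal axis, log2), with Nkx2-1 high in red and Nkx2-1 low in blue, and the number of genes in brackets. The cytosolic and mitochondrial synthetases, elongation, eIF2B and eIF2 kinase genes are apart by group, as are the Myc and nucleolar genes and the proliferation markers. The cap-binding group is apart by a narrow margin. The start codon, eIF3 and joining groups, ribosomal proteins and all genes overlap.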

How the data were processed

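Expression was measured on Affymetrix arrays from biotin-labelled, amplified total RNA (Nugen's WT-Ovation Pico kit), per the labels' protocols. The authors deposited 1 table of log2 expression values, made with RMA, per the submitters' processing notes. The log2 scale was read from RMA and from medians per array of 4.98 to 5.06, and the array build is not given in the sources used here. The number of arrays limits the precision. Rows with 1 symbol in GEO's platform annotation (21789 of 29011) were kept, the brightest per gene, which gave 19938 genes. A further 12 rows pair a member symbol with others and were not used. The test was that of limma (version 3.58.1, R 4.3.3), fitted to all 6 samples with group as the only term and moderated by eBayes, with Benjamini-Hochberg adjustment over all genes at 0.05, and the fit was tested on simulated data. "Rose" and "fell" refer to that threshold, and intervals are unadjusted. Named genes are members past the threshold, the 2 furthest from 0 per role among the others, key genes, and up to 4 called genes per list. Others are named where a group is spelled out. Members, lists and tests were chosen with earlier results of these data known. No protein sequences were used here. Alternatives were other scalings, filters, variance models, weights, a replicate block, other row rules, a stricter threshold and left-out samples.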

Additional observations from a re-analysis of the deposited data

How the results depend on the processing

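The 3 falls among the members depended on the sample set more than on the scaling. The number of members lower in Nkx2-1 high was 3 with median-centred arrays, cyclic loess, the mean over rows, all rows in 1 fit and the replicate block, in which the same 3 genes were called. It was 4 with a mean-variance trend, 5 with only genes above background, 5 with array weights and 0 at a threshold of 0.01. Farsb was added under the trend, the background filter and the weights, Tars under the filter and Eif3m under the weights. It ran from 0 (without Nkx2-1 high replicate 2) to 3 without 1 sample, and was 0 without both samples numbered 3, where fewer samples were tested. The number higher was 0 in all 16 alternatives. The median difference of the members ran from -0.12 to -0.07 over the alternatives, below that of all genes in each. Whether replicate numbers pair the samples was not settled. Deviations of same-numbered samples correlated at 0.181, -0.00405 and 0.277 for numbers 1, 2 and 3. For numbers 1 and 3 this was the highest correlation of each sample with the other group, and for number 2 it was not. The replicate block kept the count at 3. For the named genes, 616 values kept direction and side of the threshold, 65 lost the call, 6 gained it and 1 turned, Trib3, not called in any of them, which ran from -0.0337 (without Nkx2-1 high replicate 2) to 0.107 without 1 sample. The cause was not tested.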
